A study of Homo sapiens with 8 samples.

Results

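The genes described here make fatty acids, lengthen and desaturate them, attach them to coenzyme A and build them into glycerolipids. They were taken as the rows of a gene expression table whose gene name is on a list of 35 genes of these pathways, out of 58735 genes in the table. Of the 35, 33 had an FPKM (fragments counted in a gene, scaled by its exon length and by the size of the library) of at least 1 in at least 2 libraries and were tested among 16239 genes that passed the same filter. ACACB and DGAT2 did not pass.

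The data are RNA-seq libraries of HCT116, an established human colorectal carcinoma cell line. The 4 groups had 2 libraries each. Cells with a control shRNA were in 20 mM or 0 mM glucose, both for 24 h. Cells with MAPKAPK2 shRNA 1 or MAPKAPK2 shRNA 2 were in 20 mM glucose, with no time stated. MAPKAPK2 encodes a kinase that acts downstream of p38 MAP kinases. All groups carry an shRNA, the cells are of 1 cell line, and each shRNA is a single hairpin. Nothing in the labels ties the 2 libraries of a group to separate cultures. The p-values therefore measure only how far these libraries spread, which may be technical. Both the glucose and the shRNA comparisons use the 2 control libraries in 20 mM glucose.

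Fatty acid synthesis starts from acetyl-CoA, which ACLY makes from citrate and ACSS2 from acetate. ACACA turns it into malonyl-CoA, and FASN joins these units into palmitate. Elongases of the ELOVL family, with the reductases and dehydratases HSD17B12, HACD2, HACD3 and TECR, lengthen the chain, SCD and the FADS enzymes insert double bonds, and the ACSL enzymes attach coenzyme A. GPAM, the AGPAT enzymes, the lipins and DGAT1 or DGAT2 then build triacylglycerol and the precursors of phospholipids. SREBF1 encodes SREBP-1, the transcription factor known for driving many of these genes from sterol regulatory elements next to NF-Y boxes, and colorectal tumours are known for high fatty acid synthase levels.

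Promoter windows from RefSeq (GRCh38.p14, 250 bases before to 50 after a gene's start) were found for 29 of the 35 genes, 51 windows in all because several genes have more than 1 start. ACSL1 and MID1IP1 held the sterol regulatory element core TCACNCCAC, 2 of 51 windows, against 1.13% of all 35116 windows. The NF-Y box CCAAT was in 24 of the 51 windows (34.6% of all), the E-box CACGTG in 2 (7.26%) and the GC box GGGCGG in 36 (45.0%). Both strands were searched, and a match is a description of letters, not a binding site. The windows of 4 genes are shown because their genes moved in different ways with the shRNAs: SCD went opposite ways with the 2 hairpins, MID1IP1 fell with both, and ELOVL5 and FADS1 fell with shRNA 1. Capitals mark TCACNCCAC, CCAAT and CACGTG on either strand.
SCD (chr10:100346983-100347282, plus strand): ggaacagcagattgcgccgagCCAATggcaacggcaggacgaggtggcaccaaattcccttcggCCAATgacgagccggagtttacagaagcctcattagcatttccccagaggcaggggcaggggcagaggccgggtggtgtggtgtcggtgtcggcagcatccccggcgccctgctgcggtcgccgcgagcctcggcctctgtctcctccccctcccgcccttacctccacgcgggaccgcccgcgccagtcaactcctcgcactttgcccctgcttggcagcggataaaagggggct
MID1IP1 (chrX:38801209-38801508, plus strand): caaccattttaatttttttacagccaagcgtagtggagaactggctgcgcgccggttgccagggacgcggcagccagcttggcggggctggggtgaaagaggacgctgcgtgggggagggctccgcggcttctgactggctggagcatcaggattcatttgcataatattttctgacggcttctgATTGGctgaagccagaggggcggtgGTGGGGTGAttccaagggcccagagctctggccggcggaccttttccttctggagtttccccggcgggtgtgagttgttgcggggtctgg
ELOVL5 (chr6:53348901-53349200, minus strand): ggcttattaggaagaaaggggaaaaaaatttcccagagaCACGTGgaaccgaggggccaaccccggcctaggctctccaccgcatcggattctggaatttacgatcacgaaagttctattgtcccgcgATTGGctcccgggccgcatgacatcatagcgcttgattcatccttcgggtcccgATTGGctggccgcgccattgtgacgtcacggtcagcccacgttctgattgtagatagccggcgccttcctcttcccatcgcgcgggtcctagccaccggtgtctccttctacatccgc
FADS1 (chr11:61816954-61817253, minus strand): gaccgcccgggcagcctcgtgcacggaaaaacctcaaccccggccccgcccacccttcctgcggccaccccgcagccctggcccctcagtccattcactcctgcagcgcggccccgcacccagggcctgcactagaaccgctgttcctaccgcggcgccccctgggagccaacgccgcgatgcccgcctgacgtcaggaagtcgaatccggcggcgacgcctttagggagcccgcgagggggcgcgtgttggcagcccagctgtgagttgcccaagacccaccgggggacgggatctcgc
The SCD window has 2 NF-Y boxes upstream, MID1IP1 has the sterol core next to an NF-Y box, ELOVL5 has an E-box and 2 NF-Y boxes, and the FADS1 window holds none of the 3 motifs. The RefSeq start behind the FADS1 window lies inside the gene as GENCODE 29 draws it, so the window is not at the GENCODE start.

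Reads in genes numbered 14252316 to 19975449 per library, and each library had 13821 to 14611 genes at 1 FPKM or more. Of 9 markers of colorectal epithelium, 6 reached 1 FPKM, with summed levels of 1219 to 1776 FPKM, while CDX1 and CEACAM5 were at 0 in every library. Adipocyte, hepatocyte, endothelial and leukocyte lists of 3 markers each had no gene at 1 FPKM and summed to at most 0.273 FPKM. Of 4 fibroblast markers only COL1A1 reached 1 FPKM, and the list summed to 3.89 to 6.83. The second 0 mM library and the second shRNA 2 library stood apart from the others on the third principal component, at 32.5 and 18.4 against -16.7 to 0.96. MAPKAPK2 itself lay at 16.4 and 16.2 FPKM in the 20 mM controls, 2.77 and 2.54 with shRNA 1, and 0.982 and 0.800 with shRNA 2. In limma on log2(FPKM + 1) it fell by 2.24 with shRNA 1 (SE 0.09, adjusted p = 0.000201) and by 3.20 with shRNA 2 (SE 0.09, adjusted p = 5.26e-05). Its values with shRNA 2 lie below the added 1 FPKM, so this scale understates the fall. In limma voom, fitted to the reads, the log2 fold changes were -2.61 and -4.18. The level was lower in shRNA 2 cells than in shRNA 1 cells by 0.95 in log2(FPKM + 1) (limma, adjusted p = 0.00124). The same difference was -1.57 in voom.

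**Figure D1:**
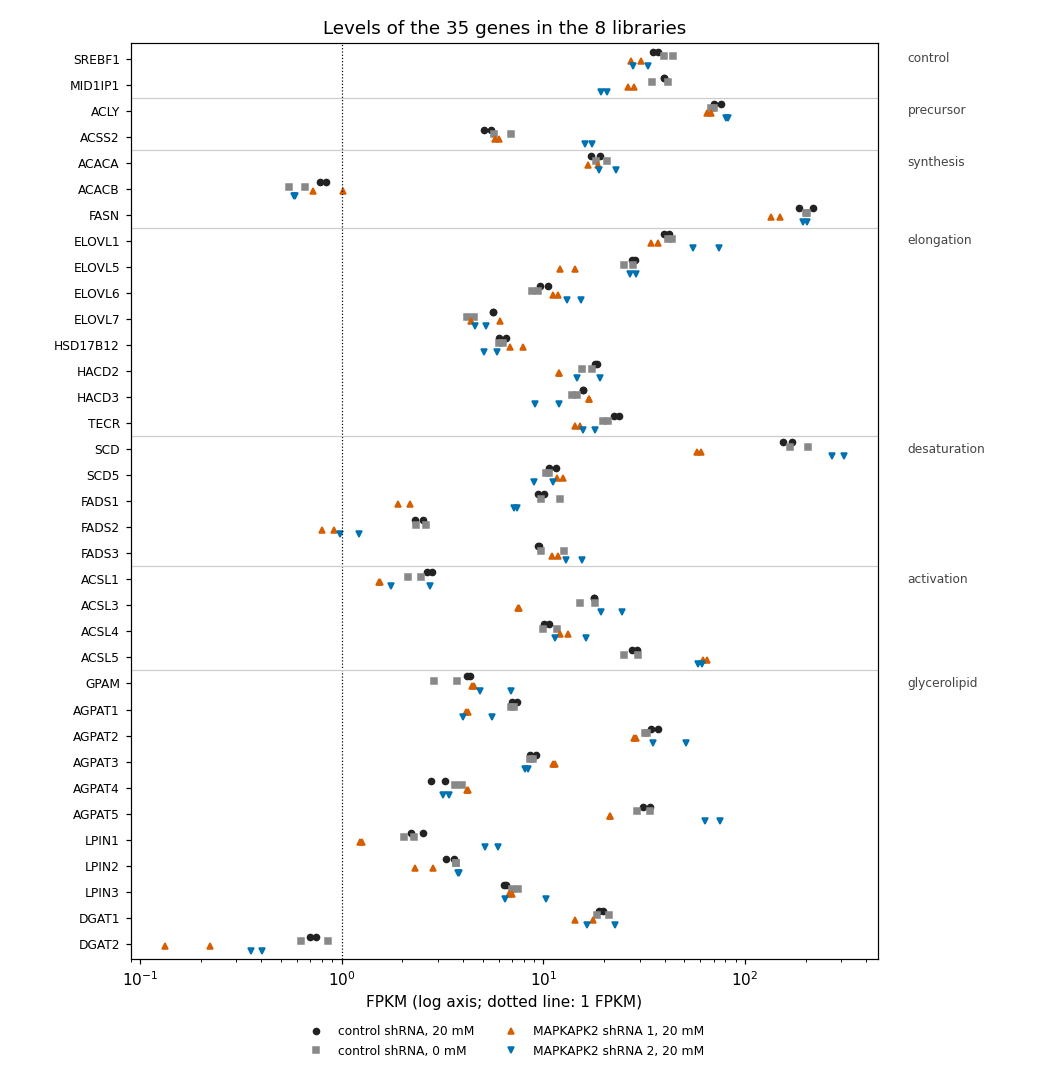
FPKM of each of the 35 genes (rows, grouped by step of the pathway) in each of the 8 libraries, on a log axis; colours and symbols mark the 4 groups and the dotted line is 1 FPKM. FASN and SCD have the highest levels, ACACB and DGAT2 lie near or below 1, and the shRNA 1 and shRNA 2 points of SCD, AGPAT5 and LPIN1 sit on opposite sides of the control points.

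The levels of the 35 genes spanned a wide range in HCT116 cells. FASN, at 218 and 185 FPKM, and SCD, at 171 and 155 FPKM, were the most abundant in the 20 mM controls. ACLY followed at 75.9 and 70.1 FPKM, and then ELOVL1, MID1IP1, SREBF1, AGPAT2 and AGPAT5 at 31.4 to 41.9 FPKM. ACACB, the acetyl-CoA carboxylase of the mitochondrial surface, stood at 0.55 to 1.02 FPKM (123 to 278 reads), while its cytosolic relative ACACA stood at 16.6 to 23.0 FPKM. DGAT2, one of the enzymes of the last step of triacylglycerol synthesis, stood at 0.132 to 0.856 FPKM (16 to 140 reads), and DGAT1, which carries out the same reaction, at 14.3 to 22.6 FPKM. Both low genes enter the test when no filter is applied, and neither passed it there. The smallest adjusted p of DGAT2 was 0.0822, with shRNA 1 (log2 fold change -0.55, SE 0.14), and that of ACACB 0.496. DGAT2 stood at 0.222 and 0.132 FPKM with shRNA 1 and at 0.401 and 0.354 FPKM with shRNA 2. The 20 mM controls were at 0.696 and 0.746 FPKM. All these values lie below the added 1 FPKM of the log2(FPKM + 1) scale, so its fold change understates the fall.

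The first comparison asks what 24 h without glucose did to these genes in cells with the control shRNA. None of the 33 tested genes passed the test, a Benjamini-Hochberg adjusted p under 0.05 over all tested genes, and none of the 16239 genes did (0% called by limma on log2(FPKM + 1)), while 1421 of all genes and 1 of the 33, AGPAT4, had an unadjusted p under 0.05. The read-based fit (limma voom) called 28 genes in all (0.172%), again none of the 33. In that fit, 3 of the 33 and 1376 of all 16239 genes had an unadjusted p under 0.05. Among the 33 genes the median log2 fold change was -0.03, against -0.01 over all genes, and the values ran from -0.32 (ELOVL7) to 0.26 (AGPAT4), with a smallest adjusted p of 0.555. Fold changes are on the log2(FPKM + 1) scale, which understates the change of genes with low FPKM, and in bulk RNA fewer expressing cells and less RNA per cell cannot be told apart.

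The regulator SREBF1 stood at 37.2 and 35.1 FPKM in 20 mM glucose and at 43.8 and 39.6 FPKM in 0 mM. Its 0 mM libraries lay above both controls, at a log2 fold change of 0.20 (SE 0.12, adjusted p = 0.701). MID1IP1, which encodes a protein that promotes the polymerisation of acetyl-CoA carboxylase, stood at 39.8 and 39.5 against 41.4 and 34.4 FPKM, with overlapping groups. FASN showed the least difference, with 218 and 185 FPKM at 20 mM against 200.1 and 202 FPKM at 0 mM, both 0 mM libraries inside the range of the controls (log2 fold change 0.00, SE 0.11). SCD, which makes oleate from stearate, was at 171 and 155 against 167 and 206 FPKM (log2 fold change 0.19, SE 0.13, adjusted p = 0.759), and the groups overlapped.

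ACSS2 was at 5.52 and 5.07 FPKM in 20 mM and at 5.72 and 6.89 FPKM in 0 mM glucose. It was 1 of 6 genes of the list whose 0 mM libraries both lay above both controls, with SREBF1, FADS3, AGPAT4, LPIN2 and LPIN3, against 19.1% of all tested genes. In 8 genes both 0 mM libraries lay below both controls (ELOVL6, ELOVL7, HACD2, HACD3, TECR, ACSL1, GPAM and AGPAT2), against 22.2% of all tested genes. Both counts, of the 33 genes, lie near these shares of all tested genes. GPAM, the mitochondrial acyltransferase that starts glycerolipid synthesis, stood at 4.32 and 4.20 against 2.87 and 3.72 FPKM (log2 fold change -0.30, SE 0.16, adjusted p = 0.681). Of the 8 elongation genes, 7 had a log2 fold change below 0, with a median of -0.13, and none passed the test. Over all tested genes, 8513 of 16239 were below 0, with a median of -0.01.

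**Figure D2:**
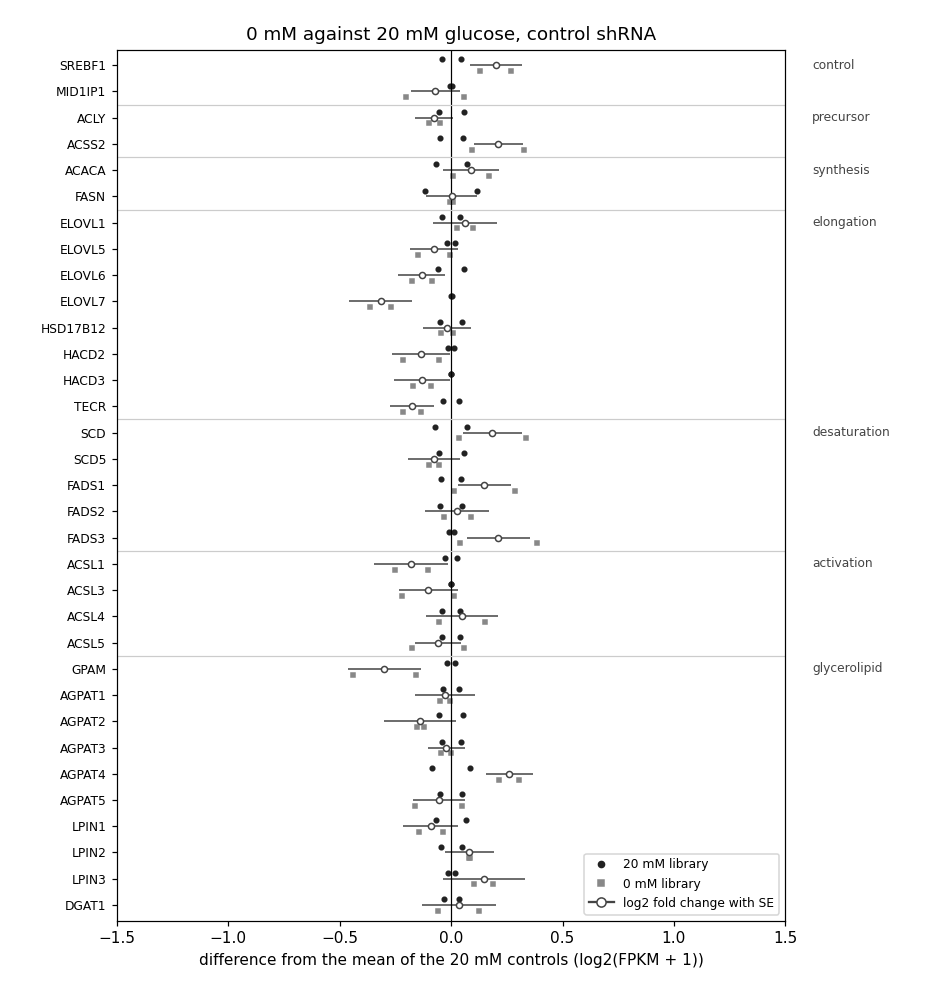
Each row is 1 of the 33 tested genes; black and grey points are the single libraries in 20 mM and 0 mM glucose, and the open circle is the log2 fold change with its SE, all as log2(FPKM + 1) relative to the mean of the 20 mM controls. All 33 fold changes lie between -0.32 and 0.26, and none passed the test.

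The second comparison asks what the knockdown of MAPKAPK2 did in 20 mM glucose, with each hairpin against the control shRNA, with their mean, and with the hairpins against each other. With shRNA 1, 12 of the 33 genes fell and 3 rose, against 10.5% and 9.35% of all tested genes. With shRNA 2, 5 fell and 8 rose, against 7.73% and 11.1% of all tested genes. Under quantile normalization the shRNA 2 split was 6 lower and 6 higher. The median log2 fold change of the 33 was -0.27 with shRNA 1 and 0.10 with shRNA 2, against -0.01 and 0.01 over all genes.

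The mean of both hairpins, with the same sign asked of each, gave 6 lower and 2 higher genes, against 7.77% and 9.56% of all tested genes. The read-based fit gave 8 lower and 4 higher, adding HACD2 and ACSL1 to the lower and ELOVL6 and FADS3 to the higher ones. The 6 lower ones in log2(FPKM + 1) were FADS1, FADS2, MID1IP1, AGPAT1, ELOVL5 and TECR, and the 2 higher ones ACSL5 and ACSS2. ELOVL5 met the sign rule with -1.03 for shRNA 1 but only -0.02 for shRNA 2, which did not pass alone (adjusted p = 0.943). In the mean of both hairpins, the log2 fold changes were -1.09 for FADS1, -0.79 for FADS2, -0.74 for MID1IP1 and -0.59 for AGPAT1. They were -0.52 for both ELOVL5 and TECR, 1.09 for ACSL5 and 0.82 for ACSS2. The adjusted p of these 8 genes ran from 0.00091 to 0.0161. ACSL3 had an adjusted p of 0.0421 in the mean but opposite signs with the 2 hairpins, so it was not called. Both hairpins passed on their own with the same sign in 5 genes (FADS2, MID1IP1, TECR and AGPAT1 lower, ACSL5 higher), against 7.08% of all tested genes. When limma was fitted to only the groups compared, FADS2, TECR and AGPAT1 did not pass with shRNA 2 (adjusted p = 0.0743, 0.107 and 0.145). Both passed with opposite signs in 3 genes (SCD, AGPAT5 and LPIN1, lower with shRNA 1 and higher with shRNA 2), against 0.942% of all tested genes. In 13 of the 33 genes neither hairpin passed, against 69.4% of all tested genes.

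**Figure D3:**
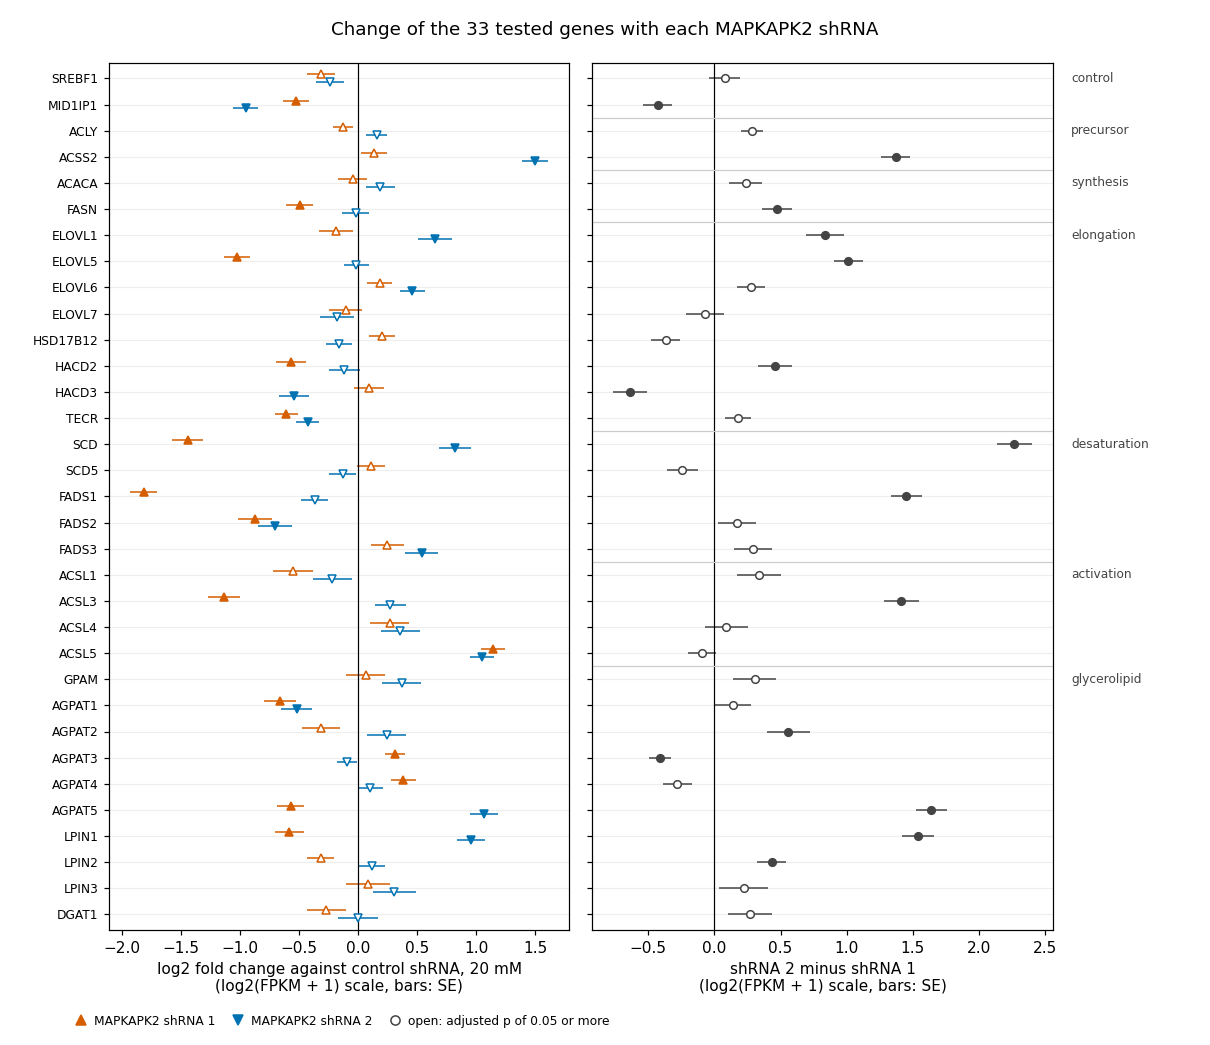
Left, log2 fold change of each of the 33 tested genes with MAPKAPK2 shRNA 1 and shRNA 2 against the 20 mM controls, which both share; right, shRNA 2 minus shRNA 1. Bars are SE, filled symbols passed at an adjusted p under 0.05, and SCD runs from -1.45 with shRNA 1 to 0.82 with shRNA 2 while ACSL5 lies at 1.14 and 1.05.

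Among the control genes, SREBF1 was at 30.6 and 27.1 FPKM with shRNA 1 and at 33.1 and 28.0 FPKM with shRNA 2, below both controls in all 4 knockdown libraries. Its log2 fold changes of -0.32 (SE 0.12, adjusted p = 0.105) and -0.24 (SE 0.12, adjusted p = 0.209) did not pass. With a replicate block (a term for the library number) in limma, SREBF1 passed as lower with shRNA 1 (adjusted p = 0.0368). It also passed there in the mean of both hairpins (adjusted p = 0.0371). In the mean it passed without the first shRNA 2 library too. Exons of RAI1 overlap 6.92% of the exon bases of SREBF1, and whether the authors counted by strand is not stated in these sources. MID1IP1 (ENSG00000165175, chrX:38801432-38806537) stood at 28.3 and 26.2 FPKM with shRNA 1 and at 20.6 and 19.4 FPKM with shRNA 2. It was lower than both controls in all 4 knockdown libraries, by 0.53 (adjusted p = 0.0181) and 0.96 (adjusted p = 0.00215) on the log2 scale. The fall with shRNA 2 passed whichever of the 8 libraries was left out, whereas the fall with shRNA 1 did not pass without either 20 mM control or either shRNA 1 library.

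The 2 suppliers of acetyl-CoA behaved differently. ACLY stood at 65.1 and 68.1 FPKM with shRNA 1 and at 80.4 and 82.2 FPKM with shRNA 2, and neither hairpin passed (log2 fold changes -0.13 and 0.15, SE 0.09). ACSS2 (ENSG00000131069, chr20:34872146-34927962) stood at 5.52 and 5.07 FPKM in the controls, 6.03 and 5.74 FPKM with shRNA 1, and 17.5 and 16.1 FPKM with shRNA 2. Both shRNA 2 libraries lay far above the other 6. The log2 fold change was 1.501 (SE 0.11, adjusted p = 0.000468) with shRNA 2 and 0.13 (SE 0.11, adjusted p = 0.454) with shRNA 1, and the hairpins differed by 1.37 (SE 0.11, adjusted p = 0.000652). The fit to the mean of both hairpins called ACSS2 higher because both signs are positive, although shRNA 1 alone did not pass.

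Of the enzymes of chain synthesis, ACACA stood at 16.6 to 23.0 FPKM in the knockdown libraries and did not pass with either hairpin (log2 fold changes -0.05 and 0.19, SE 0.13). FASN stood at 149.8 and 135 FPKM with shRNA 1 and at 193 and 203 FPKM with shRNA 2, against 218 and 185 FPKM in the controls. The shRNA 1 libraries were the 2 lowest of the 8, while the shRNA 2 libraries lay between the controls. FASN fell with shRNA 1 by 0.50 on the log2 scale (SE 0.11, adjusted p = 0.0249) and was at -0.02 (SE 0.11, adjusted p = 0.92) with shRNA 2. The fall passed in 3 of the 8 fits that left out 1 library, failing without either 20 mM control, either shRNA 1 library or the second 0 mM library, and it was lost under quantile normalization.

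The elongation genes moved in several directions. ELOVL5 (ENSG00000012660, chr6:53267398-53349179), the elongase of polyunsaturated fatty acids, stood at 27.7 and 28.3 FPKM in the controls, 12.1 and 14.4 FPKM with shRNA 1, and 26.8 and 28.7 FPKM with shRNA 2. Only the shRNA 1 libraries were low, with a log2 fold change of -1.03 (SE 0.11, adjusted p = 0.00203) against -0.02 (SE 0.11, adjusted p = 0.943) with shRNA 2, and the hairpins differed by 1.01 (SE 0.11, adjusted p = 0.0016). This difference passed in all 8 fits that left out a library and in all 9 other settings tried.

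ELOVL1, which elongates saturated very long chains, stood at 39.5 and 41.9 FPKM in the controls, 36.8 and 34.3 FPKM with shRNA 1, and 74.7 and 55.1 FPKM with shRNA 2. Both shRNA 2 libraries were the highest of the 8 and also differed from each other. It rose with shRNA 2 by 0.65 (SE 0.14, adjusted p = 0.0231) and the hairpins differed by 0.84 (SE 0.14, adjusted p = 0.00858). ELOVL6, which elongates palmitate to stearate, stood at 9.60 and 10.5 FPKM in the controls, 11.9 and 11.2 FPKM with shRNA 1, and 13.1 and 15.3 FPKM with shRNA 2. All 4 knockdown libraries lay above the controls, with 0.46 (SE 0.11, adjusted p = 0.0266) for shRNA 2 and 0.18 (SE 0.11, adjusted p = 0.281) for shRNA 1, and the difference between hairpins did not pass (0.28, SE 0.11, adjusted p = 0.109).

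TECR, the reductase of the last elongation step, stood at 22.4 and 23.6 FPKM in the controls, 15.2 and 14.3 FPKM with shRNA 1, and 18.1 and 15.7 FPKM with shRNA 2. It was below the controls in all 4 knockdown libraries, by 0.61 (adjusted p = 0.00817) and 0.43 (adjusted p = 0.0256) on the log2 scale, and its pseudogene TECRP1 reached 3.66 FPKM. The dehydratases HACD2 and HACD3 moved with different hairpins. HACD2 stood at 18.1 and 18.4 FPKM in the controls and 11.9 and 12.0 FPKM with shRNA 1 (log2 fold change -0.57, SE 0.13, adjusted p = 0.0239), against 14.7 and 19.0 FPKM with shRNA 2. HACD3 stood at 15.7 FPKM in both controls and 16.8 and 16.9 FPKM with shRNA 1, but at 9.10 and 12.0 FPKM with shRNA 2 (log2 fold change -0.54, SE 0.13, adjusted p = 0.0266). ELOVL7 and HSD17B12 did not pass with either hairpin.

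On the log2(FPKM + 1) scale, the desaturases FADS1 and SCD had the largest changes of the 33 tested genes with shRNA 1. With shRNA 2 the largest was that of ACSS2. The second place of SCD depends on the scale, which understates the change of genes with low FPKM. As a share of the mean of the controls, FADS2 fell slightly further than SCD with shRNA 1, to 35.6% against 36.3%. FADS2 also fell further in the read-based fit. DGAT2, which did not pass the filter, fell to a lower share than both. SCD (ENSG00000099194, chr10:100347124-100364834) stood at 171 and 155 FPKM in the 20 mM controls, 58.0 and 60.4 FPKM with shRNA 1, and 269 and 309 FPKM with shRNA 2. The shRNA 1 libraries were the lowest 2 and the shRNA 2 libraries the highest 2 of the 8, at 36.3% and 177% of the mean of the controls. SCD fell by 1.45 on the log2 scale with shRNA 1 (SE 0.13, adjusted p = 0.00154), rose by 0.82 with shRNA 2 (SE 0.13, adjusted p = 0.00767), and differed between the hairpins by 2.26 (SE 0.13, adjusted p = 0.00033). The rise with shRNA 2 did not pass without the second 20 mM control or when only the 2 groups were fitted. SCD5, the other stearoyl-CoA desaturase, did not pass with either hairpin and stood at 8.99 to 12.5 FPKM in all 8 libraries, so the ratio of SCD to SCD5 was 14.8 and 14.5 in the controls, 4.64 and 5.19 with shRNA 1, and 29.9 and 27.5 with shRNA 2.

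FADS1 and FADS2 encode the delta-5 and delta-6 desaturases of polyunsaturated fatty acids and overlap on opposite strands of chromosome 11 (chr11:61799625-61829318 and chr11:61792980-61867354). FADS1 stood at 10.0 and 9.39 FPKM in the controls, 2.17 and 1.91 FPKM with shRNA 1, and 7.17 and 7.38 FPKM with shRNA 2. The shRNA 1 libraries were the lowest, at 21.0% of the controls, and the shRNA 2 libraries lay between them and the controls. It fell with shRNA 1 by 1.82 (SE 0.12, adjusted p = 0.000511), the largest fall in the set, stood at -0.37 with shRNA 2 (SE 0.12, adjusted p = 0.0722), and differed between the hairpins by 1.45 (SE 0.12, adjusted p = 0.000661). With shRNA 2 it passed in the read-based fit.

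FADS2 stood at 2.53 and 2.30 FPKM in the controls, 0.800 and 0.919 FPKM with shRNA 1, and 1.22 and 0.980 FPKM with shRNA 2. It was lower in all 4 knockdown libraries, at 35.6% and 45.4% of the mean of the controls, or by 0.88 (SE 0.14, adjusted p = 0.00834) and 0.71 (SE 0.14, adjusted p = 0.0169), and the hairpins did not differ by the test (0.17, SE 0.14, adjusted p = 0.433). The fall with shRNA 1 did not pass without either 20 mM control or the first shRNA 1 library, and that with shRNA 2 not without either control or the second shRNA 2 library. Exons of FADS2 cover 4.79% of the exon bases of FADS1, and exons of FADS1 cover 4.44% of those of FADS2. FADS3, 44.2 kb from FADS1, stood at 9.56 and 9.40 FPKM in the controls and at 15.6 and 12.9 FPKM with shRNA 2 (log2 fold change 0.54, SE 0.14, adjusted p = 0.04), and at 11.8 and 11.1 FPKM with shRNA 1, which did not pass.

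**Figure D4:**
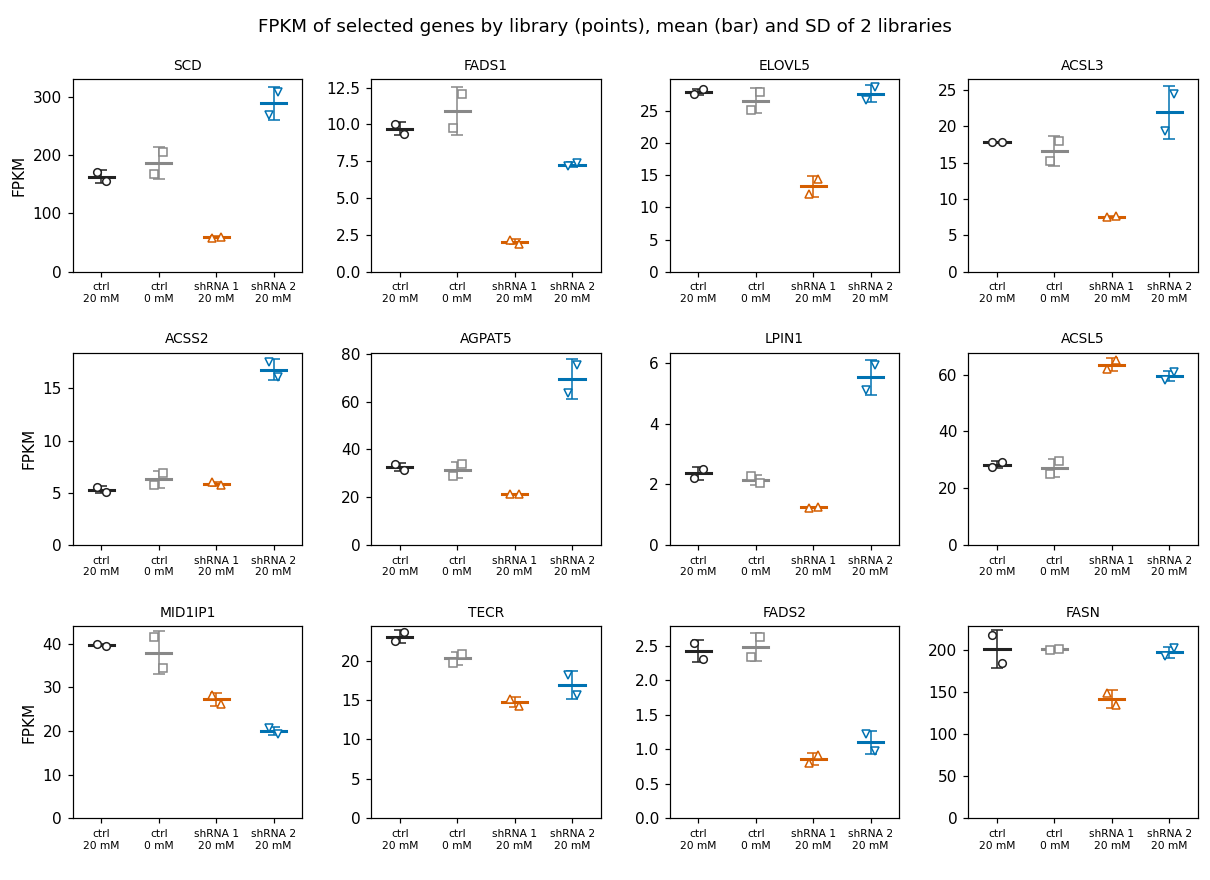
FPKM by group for 12 of the genes; each point is 1 library, each bar the mean and each error bar the SD of 2 libraries, with every axis starting at 0. SCD, AGPAT5 and LPIN1 lie below the controls with shRNA 1 and above them with shRNA 2, ELOVL5 and ACSL3 are low with shRNA 1, and ACSL5 is higher with both hairpins.

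The acyl-CoA synthetases split by member. ACSL5 (ENSG00000197142, chr10:112374018-112428380) stood at 27.5 and 29.2 FPKM in the controls, 62.1 and 65.1 FPKM with shRNA 1, and 58.2 and 60.9 FPKM with shRNA 2. All 4 knockdown libraries lay above all 4 others, at 224% and 210.2% of the controls. The log2 fold changes were 1.14 (SE 0.10, adjusted p = 0.00149) and 1.05 (SE 0.10, adjusted p = 0.00126), and both passed in all 8 fits that left out a library and in all 9 other settings. The nearest gene of the set, GPAM, lies 158.6 kb away on the other strand and did not pass with either hairpin, at 4.45 and 4.55 FPKM with shRNA 1 and 4.83 and 6.90 FPKM with shRNA 2 against 4.32 and 4.20 FPKM.

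ACSL3, known for its place on the endoplasmic reticulum and lipid droplets, stood at 17.8 FPKM in both controls, 7.52 and 7.60 FPKM with shRNA 1, and 19.3 and 24.5 FPKM with shRNA 2. Only shRNA 1 was low, by 1.14 on the log2 scale (SE 0.13, adjusted p = 0.00268), against 0.27 with shRNA 2 (SE 0.13, adjusted p = 0.208), and the hairpins differed by 1.41 (SE 0.13, adjusted p = 0.001). The ratio of ACSL3 to ACSL5 was 0.648 and 0.612 in the controls, 0.121 and 0.117 with shRNA 1, and 0.332 and 0.402 with shRNA 2. ACSL4, which prefers arachidonate, did not pass with either hairpin, and nor did ACSL1, at 2.80 and 2.66 FPKM in the controls and 1.56 and 1.53 FPKM with shRNA 1 (log2 fold change -0.55, SE 0.17, adjusted p = 0.0588). ACSL1 passed as lower with shRNA 1 in 6 of the 9 other settings, voom among them (-0.82, adjusted p = 0.0121).

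In the glycerolipid branch, the lysophosphatidate acyltransferases and lipins gave 2 genes that went opposite ways with the 2 hairpins. AGPAT5 (ENSG00000155189) stood at 33.7 and 31.4 FPKM in the controls, 21.5 FPKM in both shRNA 1 libraries, and 63.5 and 75.2 FPKM with shRNA 2. The shRNA 1 libraries were the lowest and the shRNA 2 libraries the highest of the 8. The log2 fold changes were -0.57 (SE 0.12, adjusted p = 0.0174) and 1.07 (SE 0.12, adjusted p = 0.00188), with a difference of 1.64 (SE 0.12, adjusted p = 0.000509). AGPAT2, the most abundant AGPAT in the controls at 37.0 and 34.3 FPKM, stood at 28.8 and 28.0 FPKM with shRNA 1 and at 50.8 and 35.1 FPKM with shRNA 2, so AGPAT5 was the more abundant of the pair in both shRNA 2 libraries. It was also slightly above AGPAT2 in the second 0 mM library, at 33.7 against 32.0 FPKM.

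LPIN1 (ENSG00000134324, chr2:11677595-11827409), a phosphatidate phosphatase, stood at 2.21 and 2.52 FPKM in the controls, 1.23 and 1.26 FPKM with shRNA 1, and 5.12 and 5.94 FPKM with shRNA 2. Again the shRNA 1 libraries were the lowest and the shRNA 2 libraries the highest. The log2 fold changes were -0.58 (SE 0.12, adjusted p = 0.019) and 0.96 (SE 0.12, adjusted p = 0.00332), with a difference of 1.54 (SE 0.12, adjusted p = 0.000643). The falls of AGPAT5 and LPIN1 with shRNA 1 did not pass without either 20 mM control or either shRNA 1 library. The fall of AGPAT5 was also lost under quantile normalization (limma, adjusted p = 0.0588), and that of LPIN1 with no filter on low values (limma, adjusted p = 0.0518). LPIN2 and LPIN3 did not pass with either hairpin.

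AGPAT1 stood at 7.43 and 7.02 FPKM in the controls, 4.12 and 4.25 FPKM with shRNA 1, and 5.54 and 4.00 FPKM with shRNA 2, and fell by 0.66 (adjusted p = 0.0169) and 0.52 (adjusted p = 0.0378). The shRNA 2 call passed in 1 of the 8 fits that left out a library, the one without the first shRNA 2 library, and the log2 fold change was -0.33 (adjusted p = 0.0734) without the second. Exons of other genes, mainly PPT2-EGFL8 on the opposite strand, overlap 30.2% of its exon bases. AGPAT3 and AGPAT4 rose with shRNA 1, by 0.31 (adjusted p = 0.0414) and 0.38 (adjusted p = 0.0476), but did not pass without either 20 mM control, either 0 mM library or either shRNA 1 library. DGAT1 stood at 17.6 and 14.3 FPKM with shRNA 1 and at 22.6 and 16.5 FPKM with shRNA 2, against 19.8 and 18.9 FPKM, and did not pass (log2 fold changes -0.27 and 0.00, SE 0.17).

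Set directly against each other, the hairpins differed in 15 of the 33 genes: 12 were higher and 3 lower with shRNA 2 than with shRNA 1, against 13.0% and 9.13% of all tested genes. Under quantile normalization the split was 9 higher and 4 lower. In 7 of these, SCD, AGPAT5, LPIN1, FADS1, ACSL3, ACSS2 and ELOVL5, the difference was at least 1.01 on the log2 scale and passed in every fit that left out 1 library and in the 9 other settings. The smaller differences of LPIN2, AGPAT2, HACD2, MID1IP1 and FASN passed in 0, 1, 1, 2 and 3 of the 8 fits that left out a library. That of ELOVL1 was lost without the second shRNA 1 library, and those of HACD3 and AGPAT3 without either shRNA 1 library. With the limited number of libraries, the counts depend on single ones: without either 20 mM control, the calls with shRNA 1 fell from 15 to 5 and those with shRNA 2 from 13 to 6 or 5, and those of the mean of both hairpins from 8 to 4. Without either shRNA 1 library, the calls with shRNA 1 fell to 6, those with shRNA 2 to 8, and the differences between hairpins to 8 or 7.

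The calls with shRNA 1 that were lost without either 20 mM control were those of MID1IP1, FASN, HACD2, TECR, FADS2, AGPAT1, AGPAT3, AGPAT4, AGPAT5 and LPIN1. Those with shRNA 2 lost in the same way were ELOVL1, ELOVL6, HACD3, TECR, FADS2, FADS3 and AGPAT1, and without either shRNA 1 library the shRNA 2 calls of ELOVL6, HACD3, TECR, FADS3 and AGPAT1 were lost. Those of ELOVL6, TECR, FADS2 and AGPAT1 were also lost without the second shRNA 2 library, and that of FADS3 without the first. In the mean of both hairpins, ELOVL5, TECR, FADS2 and AGPAT1 were lost without either control, ELOVL5 also without the first shRNA 2 library and AGPAT1 also without either shRNA 1 library. FADS1, SCD, ELOVL5, ACSL3 and ACSL5 with shRNA 1, and ACSS2, MID1IP1, AGPAT5, LPIN1 and ACSL5 with shRNA 2, passed whichever library was left out. When only the groups compared were fitted, the shRNA 2 calls of ELOVL1, ELOVL6, HACD3, TECR, SCD, FADS2, FADS3 and AGPAT1 were lost. With no filter on low values, the shRNA 1 calls of FASN, HACD2, AGPAT3, AGPAT4 and LPIN1 were lost.

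The pathway genes outside the set came from 4 lists with 66 tested members, of which 8 rose and 14 fell with shRNA 1, and 13 rose and 6 fell with shRNA 2. Over all tested genes the shares were 9.35% and 10.5% with shRNA 1 and 11.1% and 7.73% with shRNA 2, so the 8 and the 6 lie near the background. None passed in the glucose comparison. Among 13 tested genes of SREBP processing and lipogenic control, INSIG1, which retains SCAP and SREBP in the endoplasmic reticulum and is itself known as an SREBP target, stood at 23.1 and 21.8 FPKM in the controls, 8.54 and 8.22 FPKM with shRNA 1, and 32.8 and 34.9 FPKM with shRNA 2. Like SCD it was lowest with shRNA 1 and highest with shRNA 2 (log2 fold changes -1.32, adjusted p = 0.00066, and 0.57, adjusted p = 0.00775). INSIG2, its relative, instead rose with both hairpins, from 3.07 and 3.51 FPKM to 7.10 and 7.90 FPKM and to 9.69 and 10.2 FPKM. RNF139, an endoplasmic reticulum ubiquitin ligase, also rose with both, by 0.71 (adjusted p = 0.00821) and 1.00 (adjusted p = 0.00228).

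Among 35 tested glycerolipid and phospholipid genes outside the set, 3 rose and 7 fell with shRNA 1, and 6 rose and 2 fell with shRNA 2, against the same shares of all tested genes (9.35%, 10.5%, 11.1% and 7.73%). GPAT3, a glycerol-3-phosphate acyltransferase of the endoplasmic reticulum, stood at 5.84 and 6.79 FPKM in the controls, 8.32 and 7.52 FPKM with shRNA 1, and 22.6 and 22.4 FPKM with shRNA 2 (log2 fold change 1.69, SE 0.12, adjusted p = 0.000482). MBOAT2, a lysophospholipid acyltransferase, was high only with shRNA 2, at 8.26 and 10.6 FPKM against 2.15 and 2.44 FPKM. GPD1L, a relative of the cytosolic glycerol-3-phosphate dehydrogenase, was highest with shRNA 1, at 8.40 and 9.42 FPKM against 2.76 and 2.74 FPKM in the controls and 3.33 and 4.54 FPKM with shRNA 2. It rose with shRNA 1 by 1.40 (SE 0.15, adjusted p = 0.00203) and was lower with shRNA 2 than with shRNA 1 (log2 difference -1.01, adjusted p = 0.00478). CDS2, which makes CDP-diacylglycerol, went opposite ways, with 4.26 and 4.29 FPKM in the controls, 1.496 and 2.17 FPKM with shRNA 1, and 7.28 and 7.42 FPKM with shRNA 2. Of the 8 tested genes of precursor and NADPH supply, IDH1 fell with both hairpins, by 0.51 (adjusted p = 0.0232) and 1.11 (adjusted p = 0.00139), and the citrate carrier SLC25A1 was lower with shRNA 1 (-0.49, adjusted p = 0.0449). With shRNA 2, SLC25A1 stood above both controls, at 76.9 and 58.1 against 52.2 and 51.0 FPKM. Of the 10 tested genes of the remaining elongation, desaturation and activation list, ELOVL3 fell with shRNA 1 by 1.47 (adjusted p = 0.00471), from 4.01 and 3.65 FPKM to 1.12 and 0.429 FPKM. It was also below both controls with shRNA 2, at 2.43 and 1.90 FPKM, and in 0 mM glucose, at 2.50 and 2.41 FPKM.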

How the data were processed

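Total RNA of 8 HCT116 libraries was reverse transcribed with random hexamers, per the labels' protocols. The submitters' processing notes name featureCounts 1.5.0-p3, DESeq2 1.20.0 and HISAT2 2.0.5, with no role for each. The deposited values are FPKM as made by the authors; whether reads were counted by strand is not stated in these sources. All 58735 gene identifiers match GENCODE 29 (GRCh38). The product of FPKM and gene length came in whole steps for 100% of values (within 0.001 of a step, in proportion more for large values), which gave back the reads per gene.

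The test was limma 3.58.1 (R 4.3.3, trend) on log2(FPKM + 1) over the 16239 genes that reached 1 FPKM in 2 or more libraries, with a mean for each of 4 groups and 4 residual degrees of freedom. Calls needed an adjusted p (Benjamini-Hochberg) under 0.05, and the mean of both hairpins also the same sign for each. Alternatives were a pseudocount of 0.1, other filters, quantile normalization, limma voom on the recovered reads (also with TMM factors), only the groups compared, a replicate block, and leaving out each library. Replicates correlated at 0.962 to 0.970 across genes. They differed by more than counting noise, most in the shRNA 2 pair (chi-square per gene 31.2, against 6.22 to 12.1 in the other groups). The genes, the 4 lists of pathway genes and the marker lists were chosen with earlier results of these data known. All 35 genes may be named; from each list of other pathway genes at most 4 per comparison, those with the smallest p.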

Additional observations from a re-analysis of the deposited data

Results flagged for a closer look

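The 2 MAPKAPK2 hairpins had different effects on 15 of the 33 tested genes by the test of the difference itself, against 22.2% of all tested genes, given here as the log2 fold change of shRNA 2 minus shRNA 1. The differences were 2.26 for SCD, 1.64 for AGPAT5, 1.54 for LPIN1, 1.45 for FADS1, 1.41 for ACSL3, 1.37 for ACSS2 and 1.01 for ELOVL5. Smaller ones were 0.84 for ELOVL1, 0.56 for AGPAT2, 0.48 for FASN, 0.46 for HACD2 and 0.43 for LPIN2. The 3 genes lower with shRNA 2 were AGPAT3 at -0.41, MID1IP1 at -0.43 and HACD3 at -0.64. Fitting only the 2 hairpin groups gave 7 genes, and the differences of LPIN2, AGPAT2, HACD2, MID1IP1 and FASN passed in 0 to 3 of the 8 fits that left out a library. MAPKAPK2 itself differed between the hairpins by -0.95 on the same log2(FPKM + 1) scale, which understates it, and by -1.57 in voom. The part of this in the differences was not tested.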

How the results depend on the processing

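Each group has 2 libraries, so single libraries set many calls. When 1 library was left out (a lone library is then assumed to vary like the other groups), the number of the 33 genes past the threshold ranged from 4 to 12 for the mean of both hairpins, 5 to 17 for shRNA 1, 5 to 14 for shRNA 2 and 7 to 14 for the difference between hairpins, and stayed at 0 for glucose. Fitting only the groups compared gave 16 for shRNA 1 and 8 for the mean, but 5 for shRNA 2 and 7 for the difference. No filter on low values gave 10 for shRNA 1, 8 for shRNA 2, 8 for the mean and 10 for the difference. Fewer libraries in the first and more genes in the second are part of how these fits are built. The shRNA 1 fit used as few libraries as the shRNA 2 fit, and the cause of the lower counts was not tested. A replicate block, whose numbers share no more than a number in the labels (correlation of deviations -0.029 to 0.179), gave 11, 15, 13, 16 and 0 genes for the mean, shRNA 1, shRNA 2, the difference and glucose. Over all genes, the counts fell when a 20 mM control was left out (686 or 748 against 2815 for the mean, 942 or 1009 against 3222 for shRNA 1, and 1015 or 1152 against 3055 for shRNA 2), and in the glucose comparison were 0 in the main fit, 6 with no filter, 8 with protein-coding genes only, 28 with voom and 29 with TMM factors. No filter gave 1808 for the mean. Only the groups compared gave 961 for shRNA 2 and 1136 for the difference. Without an shRNA 1 library the counts were 1514 or 1610 for the mean, 998 or 1057 for shRNA 1 and 1384 or 1335 for the difference.

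Fold changes that changed sign lay near 0 in log2(FPKM + 1) with all libraries and did not pass there or under the alternative. Quantile normalization gave -0.0201 for FASN with glucose, 0.004 for ACACA with shRNA 1 and -0.0943 for SREBF1 between the hairpins, and voom gave 0.0019 for DGAT1 with shRNA 2. With 1 library left out, the log2 fold changes with glucose ran from -0.200 to 0.0598 for MID1IP1, -0.11 to 0.12 for FASN, -0.032 to 0.0872 for FADS2 and -0.0574 to 0.127 for DGAT1. They ran from -0.124 to 0.0272 for ACACA with shRNA 1, from -0.139 to 0.0939 for FASN and -0.22 to 0.21 for DGAT1 with shRNA 2, and from -0.04 to 0.20 for SREBF1 between the hairpins. The cause of these sign changes was not tested.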
